A study of Sus scrofa with 32 samples.

Results

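The 6 genes described here, TEK, KDR, PECAM1, ESAM, PLVAP and VWF, are widely used to recognise the endothelium, the cell layer that lines blood and lymph vessels. They were taken as all probe sets that carry 1 of these symbols in the symbol file the authors deposited. That gave 7 probe sets for 6 of 8390 symbols, out of 14327 probe sets: 1 for each gene and 2 for ESAM. All 7 passed the filter, which dropped the 30% with the lowest mean over all arrays. The probe sets are Ssc.4753.1.A1_at for TEK, Ssc.25045.1.S1_at for KDR, Ssc.14558.1.S1_at for PECAM1, Ssc.3645.1.S1_at for PLVAP and Ssc.978.1.S1_at for VWF. Ssc.1557.1.S1_at is called the first ESAM probe set and Ssc.23336.1.S1_s_at the second. By mean over all arrays, PLVAP and the second ESAM probe set were at percentiles 36.8 and 34.8, near the filter. That mean takes in the tissue where each was highest. Without the filter the same numbers of member probe sets passed between tissues.

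RNA came from 11 Ossabaw pigs, a breed of miniature swine that becomes obese on a rich diet. For 16 weeks from 5 to 6 weeks of age, the 6 lean pigs received low-fat commercial feed, and the 5 obese pigs received feed rich in fat, high-fructose corn syrup and cholesterol. All were 22 weeks old when tissue was taken. Each pig gave 1 Affymetrix array for the left anterior descending coronary artery (LAD), for the perivascular fat beside it (PVAT) and for the descending thoracic aorta (TA), except lean pig 63, which had no TA array. Of the 32 arrays, LAD and PVAT thus had 6 from lean and 5 from obese animals each, while TA had 5 of each diet, and replicates are separate animals. Fat and surplus adventitia had been trimmed off the arteries. Arterial RNA was isolated with an RNeasy Mini kit and fat RNA with a Lipid Tissue kit, so kit and tissue cannot be told apart between fat and artery. Whole tissue was measured, so more endothelial cells and more RNA per endothelial cell cannot be told apart.

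TEK and KDR are receptor tyrosine kinases: TEK (TIE2) binds the angiopoietins, which keep vessels quiescent or loosen them, and KDR (VEGFR2) is the main receptor through which VEGFA drives endothelial growth and permeability. PECAM1 and ESAM are immunoglobulin-family adhesion molecules of the contacts between endothelial cells, and both are also found on platelets. PLVAP forms the diaphragms that span fenestrae and caveolae, mainly in capillaries and veins, and VWF, stored in Weibel-Palade bodies, tethers platelets and carries clotting factor VIII. Capillary, venous and large-artery endothelium are known to carry these genes in different amounts.

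Values are the deposited log2 expression values, and a difference of 1 is a doubling of signal. Levels of different probe sets cannot be set against each other, so each gene is compared with itself across groups. Levels are given as mean ± standard deviation (SD), and differences are from limma with their standard error (SE). Fits between tissues took the arrays as independent, with 1 spread shared by all 6 groups. Their SE and p therefore do not use the pairing of tissues by pig. A probe set passed when its p, adjusted by Benjamini-Hochberg over 10029 tested probe sets, was under 0.05.

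The tissues and arrays had the following features. Adipocyte genes were higher in PVAT than in LAD for 6 of 6 tested, and lymphatic genes for 4 of 4. Smooth muscle genes were lower for 15 of 16. Of all tested probe sets, 24.2% were higher and 32.4% lower. ADIPOQ, an adipocyte gene, differed little, with lean and obese means of 10.56 and 10.72 in LAD and 10.85 and 10.85 in PVAT. Heart muscle genes varied widely between single pieces of tissue: the mean of 20 such genes ran from 7.62 to 11.95 in LAD and from 6.54 to 12.22 in PVAT, and it stayed between 6.22 and 7.28 in TA. Pig 57, an obese pig, had an unusual aortic array, with a mean of 10.17 for 3 mesothelial genes against 5.57 to 6.90 in the other TA arrays, and a smooth muscle mean of 11.42, lower than the 12.22 to 12.76 of the rest. In each tissue 2 obese arrays had RNA with a 28S/18S ratio below 0.8, and no lean array did.

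The comparison between tissues asks where in and around the vessel these genes are expressed. All 6 genes were higher in PVAT than in TA, with 7 of 7 probe sets passing, against 26.9% of all tested probe sets that passed in that direction. PVAT exceeded LAD for TEK, KDR, PECAM1, PLVAP and VWF, 5 of 7 probe sets against 24.2% of all tested. Both ESAM probe sets went the other way and were lower in PVAT than in LAD, against 32.4% of all tested that were lower. LAD exceeded TA for TEK, PECAM1 and both ESAM probe sets, 4 of 7 against 14.4% of all tested, while KDR, PLVAP and VWF did not pass. A difference in the same direction in every pig was found for 7 of 7 probe sets in PVAT over TA (10.1% of all tested), for 5 of 7 in PVAT over LAD (11.8%), for the first ESAM probe set in LAD over PVAT (21.2%) and for 4 of 7 in LAD over TA (9.04%). The median difference of the 7 probe sets was 1.81 for PVAT over TA, 0.72 for PVAT over LAD and 1.13 for LAD over TA, and over all tested probe sets it was -0.04, -0.04 and 0.01.

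**Figure D1:**
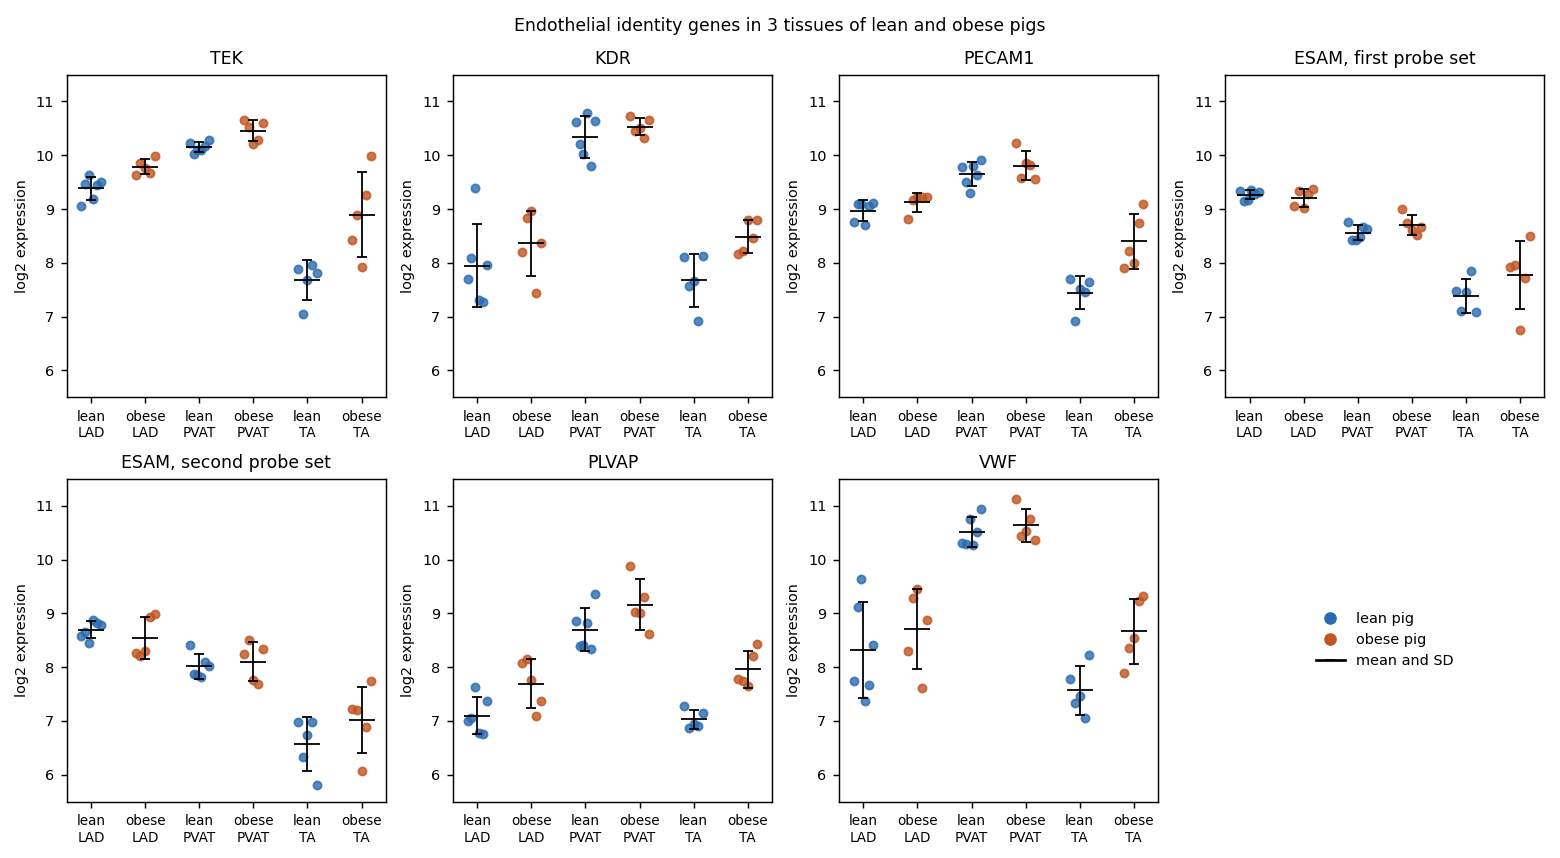
Log2 expression of the 7 probe sets (y axis) in the 6 groups (x axis), with 1 point per pig and black marks for mean and SD. TEK, KDR, PECAM1, PLVAP and VWF have their highest group means in PVAT, and both ESAM probe sets have theirs in LAD, where lean pigs average 9.27 and 8.70.

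TEK, the angiopoietin receptor, fell in steps from PVAT to LAD to TA. In PVAT it ran from 10.02 to 10.28 (median 10.14) in lean pigs, and was 10.66, 10.53, 10.21, 10.28 and 10.60 in obese pigs 51, 55, 57, 81 and 85. In LAD it ran from 9.06 to 9.64 (median 9.46) in lean pigs and was 9.64, 9.86, 9.77, 9.67 and 9.99 in the obese pigs in the same order. In TA the lean pigs 48, 56, 73, 80 and 86 had 7.89, 7.04, 7.69, 7.97 and 7.82, and the obese pigs had 8.42, 8.89, 7.93, 9.26 and 9.98. Every PVAT array was above every LAD array and every TA array, while obese TA arrays reached into the LAD range. PVAT was higher than LAD by 0.72 (SE 0.15, adjusted p = 0.000245), in 11 of 11 pigs, and LAD was higher than TA by 1.29 (SE 0.16, adjusted p = 2.09e-07), in 10 of 10 pigs. In the order of the group means, lean LAD at 9.38 ± 0.22 (n = 6) and obese TA at 8.90 ± 0.79 (n = 5) lay closer together than their pooled SD of 0.549.

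KDR, the VEGF receptor, had nearly the same level in both arteries and a far higher one in fat. In PVAT it ran from 9.80 to 10.78 (median 10.41) in lean pigs and was 10.73, 10.46, 10.50, 10.32 and 10.65 in the obese pigs. In LAD the lean pigs 48, 56, 63, 73, 80 and 86 had 7.70, 8.09, 9.39, 7.30, 7.28 and 7.95, and the obese pigs had 8.21, 8.83, 8.97, 7.45 and 8.37. In TA the lean pigs had 8.10, 7.57, 7.66, 6.92 and 8.13, and the obese pigs 8.16, 8.22, 8.79, 8.46 and 8.80. The PVAT arrays did not overlap with either artery, and the LAD and TA arrays overlapped over most of their range. PVAT exceeded LAD by 2.28 (SE 0.21, adjusted p = 4.86e-10), a 4.86-fold difference, in 11 of 11 pigs, and exceeded TA by 2.36 (SE 0.21, adjusted p = 2.32e-10). LAD minus TA was 0.07 (95% interval -0.36 to 0.51, adjusted p = 0.85), positive in 5 of 10 pigs, and it turned to values down to -0.15 under 6 of 22 other settings.

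PECAM1 had the same order as TEK. In PVAT it ran from 9.31 to 9.91 (median 9.71) in lean pigs, and was 10.22, 9.58, 9.86, 9.82 and 9.56 in the obese pigs. In LAD it ran from 8.70 to 9.11 (median 9.08) in lean pigs, and was 8.81, 9.16, 9.21, 9.22 and 9.23 in the obese pigs. In TA the lean pigs had 7.70, 6.92, 7.51, 7.45 and 7.64, and the obese pigs 7.91, 8.23, 8.01, 8.74 and 9.10. PVAT lay above both arteries in every array, and 2 obese TA arrays, of pigs 81 and 85, reached the LAD range. PVAT was higher than LAD by 0.68 (SE 0.12, adjusted p = 3.45e-05), in 11 of 11 pigs, and LAD was higher than TA by 1.13 (SE 0.13, adjusted p = 4.93e-08), in 10 of 10 pigs. A further probe set, Ssc.6050.1.A1_at, has the symbol PECAM1 in the platform annotation but not in the authors' symbol file. It is not counted here, and its differences were 0.73 for PVAT over LAD (adjusted p = 0.000186) and 1.14 for LAD over TA (adjusted p = 1.69e-06).

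ESAM, the other junction molecule, was highest in the coronary artery. By its first probe set, LAD ran from 9.15 to 9.35 (median 9.29) in lean pigs and was 9.05, 9.33, 9.02, 9.29 and 9.38 in the obese pigs. PVAT ran from 8.43 to 8.75 (median 8.55) in lean pigs and was 9.00, 8.73, 8.61, 8.53 and 8.67 in the obese pigs. TA had 7.48, 7.10, 7.46, 7.84 and 7.08 in lean pigs, and 7.92, 7.96, 6.76, 7.73 and 8.50 in obese pigs. Every LAD array was above every PVAT array, as for 11.1% of all tested probe sets, and above every TA array, as for 3.18%. PVAT was lower than LAD by 0.61 (fitted difference -0.61, SE 0.13, adjusted p = 0.000202), in 11 of 11 pigs, and LAD was higher than TA by 1.66 (SE 0.13, adjusted p = 4.59e-11), in 10 of 10.

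The second ESAM probe set gave the same directions. Its means in lean and obese pigs were 8.70 ± 0.16 and 8.54 ± 0.38 in LAD, 8.02 ± 0.23 and 8.10 ± 0.36 in PVAT, and 6.57 ± 0.50 and 7.02 ± 0.61 in TA. PVAT minus LAD was -0.56 (SE 0.16, adjusted p = 0.00491), with 10 of 11 pigs lower. Among obese pigs alone that difference was -0.43 and did not pass (adjusted p = 0.168), while the first probe set passed in lean and in obese pigs. LAD minus TA was 1.82 (SE 0.17, adjusted p = 9.97e-10). No fold is given for it, since the lean TA mean lies below 6.64, the log2 of an intensity of 100 that every deposited probe set reaches in at least 11 arrays.

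PLVAP, the diaphragm protein, was far higher in fat than in either artery. In PVAT it ran from 8.34 to 9.36 (median 8.62) in lean pigs, and was 9.88, 9.02, 9.00, 9.31 and 8.61 in the obese pigs. In LAD the lean pigs had 6.99, 7.05, 7.63, 6.77, 6.76 and 7.37, and the obese pigs 8.08, 8.15, 7.76, 7.09 and 7.36. In TA the lean pigs had 7.28, 6.87, 6.95, 6.90 and 7.15, and the obese pigs 7.78, 7.73, 7.65, 8.21 and 8.43. Every PVAT array was above every LAD array, and only the highest obese TA array, of pig 85, reached the PVAT range. PVAT exceeded LAD by 1.54 (SE 0.16, adjusted p = 3.44e-09), a 2.90-fold difference, and TA by 1.43 (SE 0.16, adjusted p = 1.19e-08). LAD minus TA was -0.11 (95% interval -0.43 to 0.22), positive in 5 of 10 pigs.

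VWF had the widest spread between pigs of the same group in LAD. In PVAT it ran from 10.26 to 10.95 (median 10.42) in lean pigs, and was 11.12, 10.44, 10.52, 10.75 and 10.36 in the obese pigs. In LAD the lean pigs 48, 56, 63, 73, 80 and 86 had 7.74, 9.11, 9.63, 7.38, 7.67 and 8.40, and the obese pigs had 8.31, 9.28, 9.45, 7.62 and 8.87. In TA the lean pigs had 7.78, 7.33, 7.46, 7.05 and 8.23, and the obese pigs 7.89, 8.35, 8.53, 9.23 and 9.32. Fat did not overlap with either artery, and the arteries overlapped with each other. PVAT exceeded LAD by 2.06 (SE 0.25, adjusted p = 5.96e-08), a 4.18-fold difference, in 11 of 11 pigs, and TA by 2.46 (SE 0.25, adjusted p = 2.53e-09). LAD minus TA was 0.39 (95% interval -0.12 to 0.91, adjusted p = 0.279), positive in 6 of 10 pigs.

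The order of the 6 group means differed between genes. For TEK and PECAM1 it ran from obese PVAT through lean PVAT, obese LAD, lean LAD and obese TA to lean TA, and neighbours in this order had overlapping arrays except lean PVAT and obese LAD and, for PECAM1, obese and lean TA. For VWF obese TA stood between obese and lean LAD, and for KDR it stood above both LAD groups. Apart from lean PVAT and the group next below it, the neighbouring groups of VWF and KDR overlapped. For PLVAP the order was that of KDR, and all neighbours overlapped. For ESAM lean LAD came first, then obese LAD, obese PVAT, lean PVAT, obese TA and lean TA. Only obese LAD and obese PVAT did not overlap among neighbours for the first ESAM probe set, and only lean PVAT and obese TA for the second.

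Without overlap, 5 of 7 probe sets were higher in all PVAT than in all LAD arrays (3.81% of all tested) and 4 of 7, those of TEK, PECAM1, VWF and KDR, were higher in all PVAT than in all TA arrays (4.96%). All 7 probe sets passed between PVAT and LAD, and in the same direction, with the heart muscle mean as a covariate, and without the 6 arrays with a 28S/18S ratio below 0.8. With the covariate KDR was 2.20 higher in PVAT than in LAD and VWF 1.89 higher, and the ESAM probe sets were at -0.59 and -0.53.

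**Figure D2:**
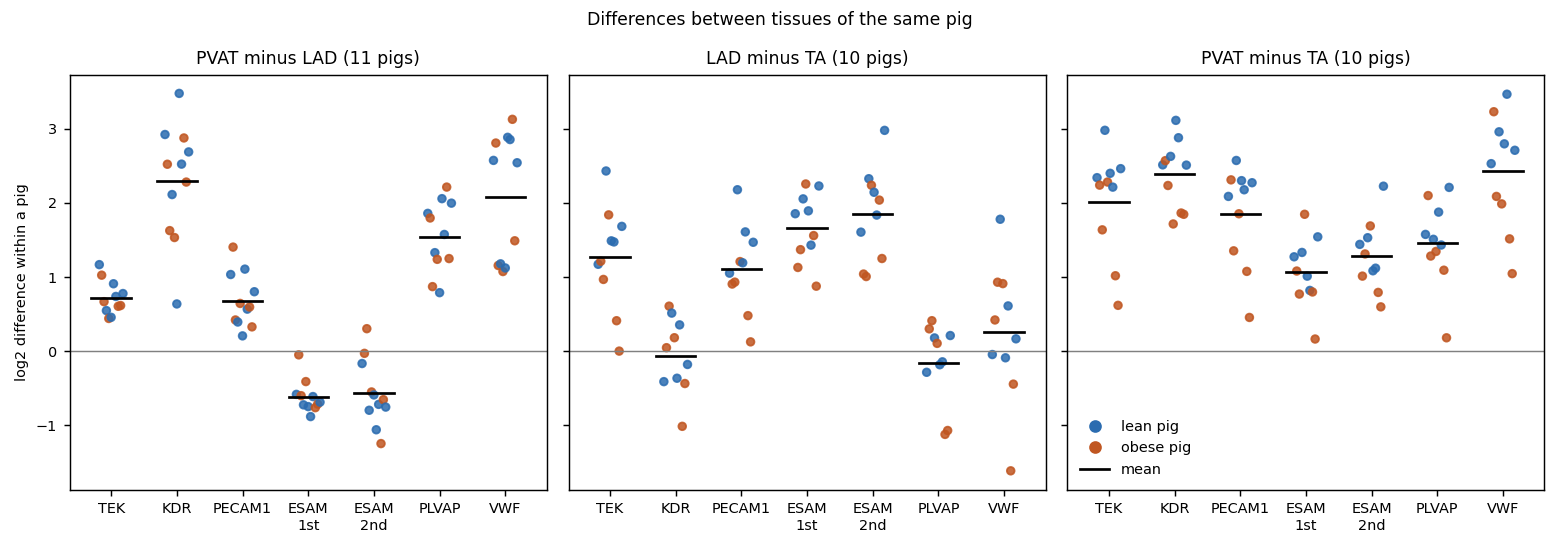
Log2 difference between tissues of the same pig (y axis) for each probe set (x axis), with 1 point per pig and a bar at the mean, for PVAT minus LAD, LAD minus TA and PVAT minus TA. PVAT minus LAD is above 0 in 11 of 11 pigs for 5 genes and below 0 in 11 of 11 for the first ESAM probe set, and LAD minus TA for KDR is split 5 to 5.

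In the LAD, VWF and KDR moved between pigs together with heart muscle genes, a relation looked for after the values were seen. Pig 63 had the highest heart muscle mean, 11.95, with 9.63 for VWF and 9.39 for KDR. Pig 81 had the lowest, 7.62, with 7.62 for VWF and 7.45 for KDR. Pigs with more heart muscle signal had higher values of both genes. Pig 63 also had the highest adipocyte and lymphatic list means of the LAD arrays, 9.49 and 9.17. The lymphatic mean was next highest in pig 57, 8.37, with 9.45 for VWF and 8.97 for KDR. It was lowest in pig 73, 6.89, with 7.38 for VWF and 7.30 for KDR. Correlations were computed for the heart muscle list only, and those of the other lists were not tested. The relation is therefore not shown to be particular to heart muscle. Across the 11 LAD arrays, Pearson's r with the heart muscle mean was 0.88 for KDR (permutation p = 0.00042, adjusted 0.00588; Spearman's rho 0.85, permutation p = 0.00175, adjusted 0.0122). For VWF it was 0.85 (permutation p = 0.00134, adjusted 0.00938; rho 0.85, permutation p = 0.00169, adjusted 0.0122). The adjustment is over 14 relations, 7 probe sets in LAD and PVAT, and 100000 permutations were drawn. It does not cover the choice of the heart muscle list, 1 of 16 lists beside the members. Arrays were permuted across sacrifice dates. The p-values therefore cannot decide whether the relation would hold beyond these arrays.

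Only 0.728% of all tested probe sets had an r as high as KDR's in these arrays, and 1.08% one as high as VWF's. Without pigs 81 and 63, the farthest from the median, r was 0.81 for KDR and 0.78 for VWF. The other LAD probe sets did not pass after adjustment: r was 0.65 for PLVAP, 0.48 for TEK, 0.26 for PECAM1, and -0.65 and -0.70 for the first and second ESAM probe sets. In PVAT none of the 7 passed, with r between -0.64 for KDR and 0.12 for the second ESAM probe set. The pigs were killed on 3 dates, and VWF in LAD was 9.11 to 9.63 in the 4 pigs of date 1, 7.74 and 8.31 in those of date 2 and 7.38 to 8.87 in those of date 3. With values centred on their date, r was 0.72 for KDR, 0.69 for VWF and -0.25 for the second ESAM probe set; single dates hold too few pigs for a value each. The part of heart muscle in the LAD levels of these genes was not tested further.

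**Figure D3:**
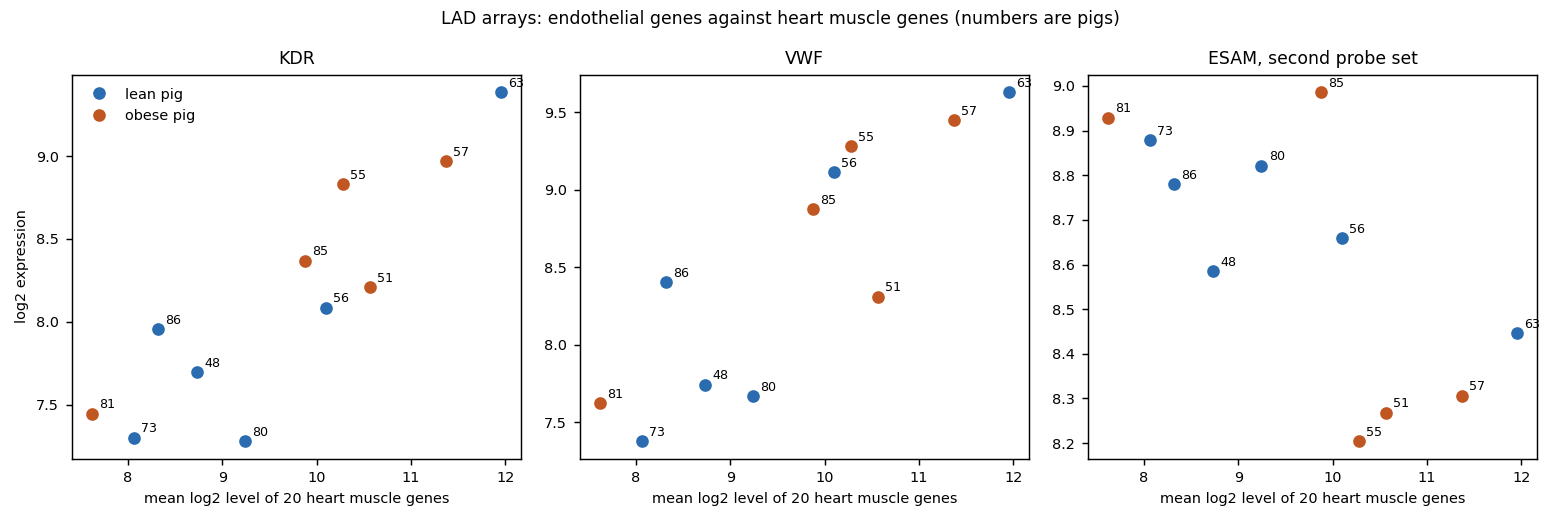
Log2 expression of KDR, VWF and the second ESAM probe set in LAD (y axes) against the mean log2 level of 20 heart muscle genes in the same array (x axis), with 1 numbered point per pig. KDR and VWF are highest in pig 63, which also has the highest heart muscle mean of 11.95, and r for the second ESAM probe set, which did not pass, is -0.70, or -0.25 with values centred on sacrifice date.

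The comparison of obese with lean pigs asks whether these genes differ with juvenile obesity in each tissue. No member probe set passed in any tissue in limma: 0 of 7 in LAD, where 0.0399% of all tested probe sets passed, 0 of 7 in PVAT, where 0% passed, and 0 of 7 in TA, where 0% passed. At an unadjusted p under 0.05 the counts were 2 of 7 in LAD (17.2% of all tested), 1 of 7 in PVAT (2.2%) and 5 of 7 in TA (7.18%). The fitted difference was above 0 for 5 of 7 probe sets in LAD, 7 of 7 in PVAT and 7 of 7 in TA, against 34.3%, 50.2% and 44.6% of all tested probe sets. The median difference of the members was 0.39 in LAD, 0.15 in PVAT and 0.93 in TA, against -0.06, 0.00 and -0.03 over all tested probe sets.

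In the aorta, obese pigs had higher means of the receptors. The TEK difference was 1.22 (SE 0.35, unadjusted p = 0.00585, adjusted p = 0.476) and that of KDR 0.81 (SE 0.24, unadjusted p = 0.00683, adjusted p = 0.508). For TEK the obese value of pig 57, 7.93, fell within the lean range and the other 4 were above it; for KDR all 5 obese arrays were above all lean ones. The adhesion molecule PECAM1 differed by 0.95 (SE 0.25, adjusted p = 0.427), again with no overlap, and the ESAM probe sets by 0.38 and 0.46 (adjusted p = 0.71 and 0.704), with overlap. PLVAP differed by 0.93 (SE 0.17, adjusted p = 0.219), the smallest p of the members, with no overlap, and VWF by 1.09 (SE 0.31, adjusted p = 0.473), with overlap. Arrays without overlap were thus found for 3 of 7 probe sets, against 1.4% of all tested probe sets with every obese above every lean TA array.

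Without the array of pig 57, 1 of 7 member probe sets passed in TA, against 0.289% of all tested. PLVAP rose, from 7.03 ± 0.18 (n = 5) in lean pigs, by 1.01 (SE 0.16, adjusted p = 0.0397), a 2.01-fold difference. The other differences were 1.46 for TEK (adjusted p = 0.102), 1.05 for PECAM1 (0.132), 1.12 for VWF (0.239), 0.73 for KDR (0.307), and 0.64 and 0.70 for ESAM (0.265 and 0.367). All 7 then had an unadjusted p under 0.05, against 10.7% of all tested. With all 6 groups in 1 fit, which shares the spread over the tissues, TEK and PECAM1 passed instead (adjusted p = 0.0102 and 0.0108) and PLVAP did not (0.0555). In that fit 0.598% of all tested passed. The shared spread is drawn from unequal groups. The SD of TEK was 0.79 in obese TA and 0.10 to 0.22 in LAD and PVAT. For PECAM1 it was 0.51 in obese TA and 0.18 to 0.27 in LAD and PVAT.

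The lowest 28S/18S ratios in TA and the highest values of several members fell in the same obese pigs. Obese pigs 81 and 85 had 28S/18S ratios of 0.61 and 0.57, against 1.17 to 1.54 in the lean pigs, and they also had the highest TEK, PECAM1, PLVAP and VWF of all TA arrays. Obese pigs 51 and 55, with ratios of 1.28 and 1.29, had 8.42 and 8.89 for TEK and 7.78 and 7.73 for PLVAP, both above every lean array. Obese pig 57, with a ratio of 2.14, had 7.93 for TEK, inside the lean range, and 8.79 for KDR, above it. Among lean pigs the lowest ratio, 1.17 in pig 56, went with the lowest TEK, PECAM1 and PLVAP. For VWF, KDR and both ESAM probe sets another lean pig was lowest. Without pigs 81 and 85 the differences were 0.73 for TEK (SE 0.27, adjusted p = 0.334), 0.60 for PECAM1 (SE 0.19, 0.299), 0.69 for PLVAP (SE 0.12, 0.148), 0.68 for VWF (SE 0.28, 0.357) and 0.71 for KDR (SE 0.29, 0.361). The ESAM probe sets were then at 0.15 (SE 0.31, adjusted p = 0.767) and 0.26 (SE 0.36, 0.662). None passed, and the TEK, PECAM1, VWF and both ESAM differences were over 1.5 times smaller than with all arrays. With the ratio as a covariate PLVAP passed (0.85, adjusted p = 0.0178), while 547 of all tested probe sets did.

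**Figure D4:**
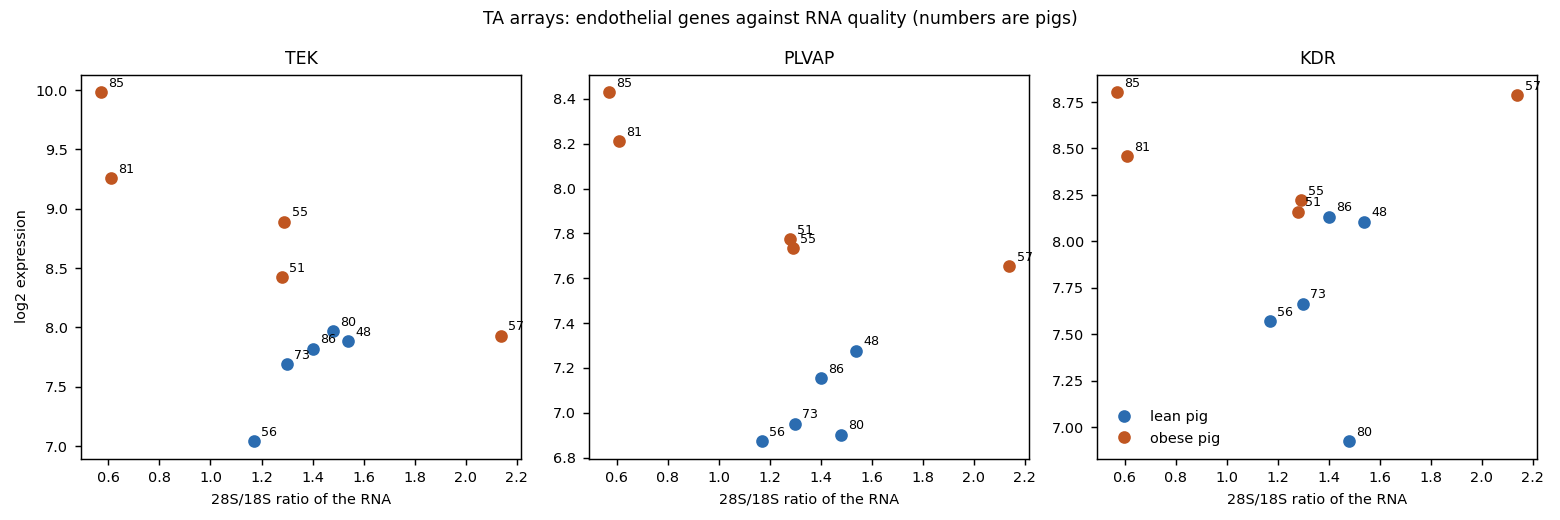
Log2 expression of TEK, PLVAP and KDR in TA (y axes) against the 28S/18S ratio of the RNA (x axis), with 1 numbered point per pig. Obese pigs 81 and 85 have the lowest ratios, 0.61 and 0.57, and the highest TEK and PLVAP, and obese pig 57 has the highest ratio, 2.14.

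Markers of other cells were read in the same arrays, and none of the smooth muscle, macrophage and platelet genes passed in TA. Of 16 tested smooth muscle genes 1 had a positive difference between obese and lean pigs, with a median of -0.37, and -0.09 without pig 57. The mean of 14 measured macrophage genes was 10.65 and 10.58 in obese pigs 51 and 55 and 8.72 to 9.38 in the other obese pigs, against 8.94 to 9.30 in lean pigs. Of 13 tested macrophage genes 10 had a positive difference, and 12 without pig 57. Of 3 tested platelet genes 1 had a positive difference, and 3 without pig 57, with a median of 0.20. Over all tested genes 48.1% were positive, and 45.6% without pig 57. The mean of 5 measured platelet genes was highest in obese pigs 81 and 85, at 10.19 and 10.28. Their part in the endothelial values was not tested.

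Within the sacrifice dates, obese minus lean in TA was above 0 for all 7 probe sets on each of the 3 dates. It was 1.37, 0.54 and 1.80 for TEK on dates 1, 2 and 3, and 0.82, 0.50 and 1.32 for PLVAP. The KDR difference was 0.93, 0.06 and 1.06, and that of VWF 1.11, 0.10 and 1.69. Each date held 1 to 3 arrays per group, so no test was made within them.

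In LAD the obese pigs had a higher TEK mean, 9.79 ± 0.14 (n = 5) against 9.38 ± 0.22 (n = 6), a difference of 0.40 (SE 0.11, adjusted p = 0.162), with obese pig 51 just inside the lean range. PLVAP differed by 0.59 (SE 0.22, adjusted p = 0.222) with wide overlap. The PECAM1 difference was 0.16, that of VWF 0.39 and that of KDR 0.41, and the ESAM probe sets were at -0.05 and -0.16. VWF turned to -0.05 with the 28S/18S ratio as a covariate, and likewise without the 2 low-ratio LAD arrays. Heart muscle genes had a positive difference in LAD for 11 of 17 tested, against 35.9% of all tested genes. Their median was 0.91, and none passed. With the heart muscle mean as a covariate the difference was 0.12 for VWF (SE 0.25) and 0.18 for KDR (SE 0.19), and neither passed. The 95% intervals of VWF, from -0.59 to 1.36, and of KDR, from -0.41 to 1.24, were wide, which goes with their large spread between pigs in LAD. Macrophage genes, by contrast, had an unadjusted p under 0.05 and a higher mean in obese LAD for 13 of 13 tested. Of all tested probe sets 5.49% did so. The median macrophage difference was 1.66, and 2 of the 13 passed.

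In PVAT, TEK differed by 0.31 (SE 0.10, unadjusted p = 0.00919, adjusted p = 0.999) and PLVAP by 0.47 (SE 0.24, adjusted p = 0.999). The remaining 5 probe sets differed by 0.09 to 0.19. Lean and obese arrays overlapped for every member in PVAT and in LAD, where 0.16% and 1.31% of all tested probe sets did not overlap upward.

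Whether obese minus lean itself differed between tissues was tested in 1 fit, and 0 of 7 probe sets passed in any of the 3 comparisons in limma, as did 0% of all tested. The TA difference exceeded that of LAD by 0.81 for TEK (fitted LAD minus TA -0.81, SE 0.31, unadjusted p = 0.0146, adjusted p = 0.998) and by 0.80 for PECAM1 (fitted -0.80, SE 0.25, unadjusted p = 0.00382, adjusted p = 0.998). Against PVAT the fitted values were -0.91 for TEK (SE 0.31, adjusted p = 0.854) and -0.80 for PECAM1 (SE 0.25, adjusted p = 0.854). Without the 6 arrays with a 28S/18S ratio below 0.8, LAD minus TA was -0.35 for TEK and -0.48 for PECAM1, and PVAT minus TA was -0.41 and -0.61. With array weights PECAM1 was at -0.46 and -0.45. PVAT minus LAD lay between -0.26 and 0.25. At an unadjusted p under 0.05 the counts were 2 of 7, 2 of 7 and 0 of 7, against 2.26%, 4.92% and 2.91% of all tested.

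**Figure D5:**
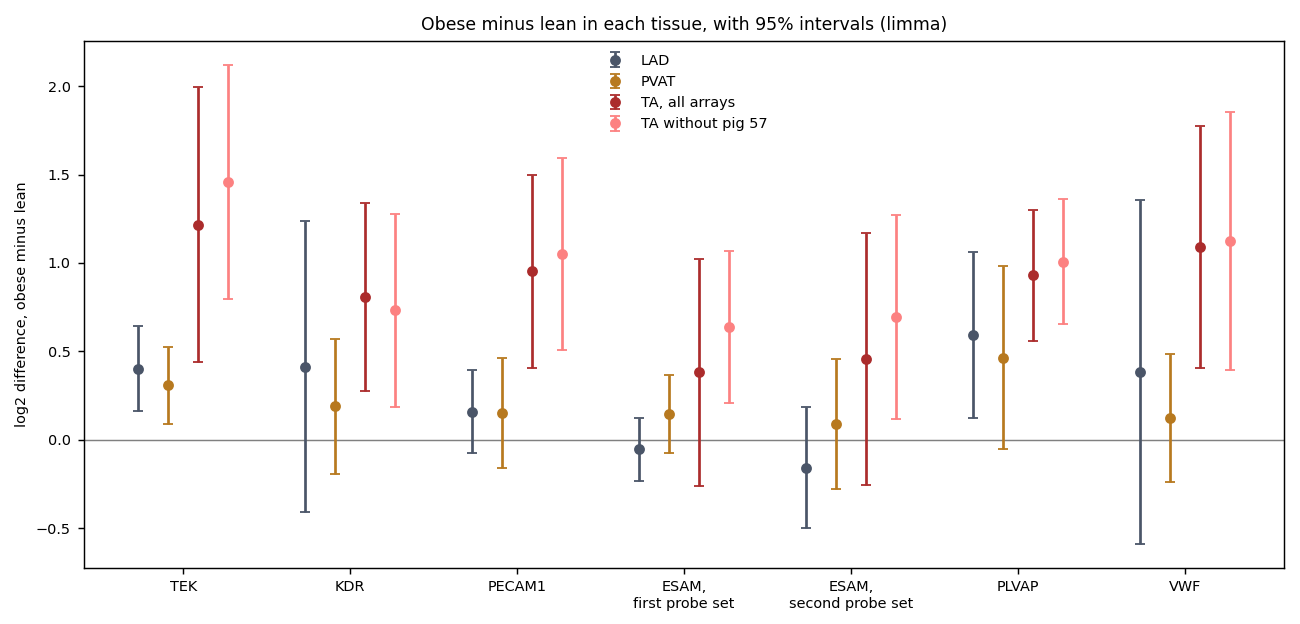
Obese minus lean log2 difference (y axis) of the 7 probe sets (x axis) in LAD, PVAT, TA and TA without pig 57, with limma 95% intervals that are not adjusted for multiple testing. In TA the intervals of TEK, KDR, PECAM1, PLVAP and VWF lie above 0, and the largest difference with all arrays is 1.22 for TEK.

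Other endothelial genes came from a list of 59, of which 34 were measured and 30 tested. Of these 26 were higher and 3 lower in PVAT than in TA, 18 higher and 4 lower in PVAT than in LAD, and 19 higher and 0 lower in LAD than in TA. Over all tested probe sets the shares were 26.9% higher and 32.9% lower, 24.2% and 32.4%, and 14.4% and 10.1%. Their median differences were 1.12, 0.57 and 0.58, against -0.02, -0.02 and 0.01 over all 6694 tested genes. CDH5, the cadherin of endothelial junctions, was 1.33 higher in PVAT than in LAD (SE 0.15) and 0.62 higher in LAD than in TA (SE 0.15). KANK3 and PODXL, a sialomucin of the luminal surface, were 1.54 and 1.39 higher in PVAT than in LAD. The 4 lower ones were MCAM, an adhesion molecule also carried by smooth muscle, at -1.89, TM4SF1 at -1.10, ANGPT2 at -0.53 and BMPR2 at -0.41. TM4SF1 was 1.54 higher in LAD than in TA, and NOS3, the endothelial nitric oxide synthase, 1.46 higher.

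Between obese and lean pigs, 0 of the 30 passed in each tissue, with 5, 3 and 10 higher at an unadjusted p under 0.05 in LAD, PVAT and TA, against 5.49%, 1.41% and 3.66% of all tested probe sets. The difference was above 0 for 22, 26 and 23 of 30, against 35.9%, 50.1% and 48.1% of all tested genes, with medians of 0.12, 0.09 and 0.45. In TA without pig 57, TSPAN12, a tetraspanin of Norrin and Frizzled signalling, passed with 1.18 (SE 0.13, adjusted p = 0.0163) and 28 of 30 were above 0, against 45.6% of all tested genes. Obese pigs 81 and 85, with 28S/18S ratios of 0.61 and 0.57, were still in that comparison.

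Ligands and partners of the receptors were read from a list of angiopoietin and VEGF signalling genes, with 20 tested. In PVAT against LAD 5 were higher and 7 lower, close to the 24.2% and 32.4% of all tested probe sets. In LAD against TA 8 were higher and 4 lower, against 14.4% and 10.1%. VEGFA, the ligand of KDR, was 2.10 higher in PVAT than in LAD (SE 0.16), as KDR was, and -0.08 in LAD minus TA (SE 0.16). VEGFC, known as the lymphatic growth factor, was 1.57 higher in PVAT than in LAD. ANGPT2, a ligand of TEK made by endothelium, was 2.30 higher in LAD than in TA (SE 0.13), against a lean TA mean of 6.37 that lies below 6.64, and at -0.53 in PVAT minus LAD (SE 0.12), the direction of ESAM rather than of TEK. In TA none passed between obese and lean pigs, with 0.75 for ANGPT2 (adjusted p = 0.267) and 0.48 for VEGFA (adjusted p = 0.671). ANGPT1 and TIE1 were measured but fell below the filter, and FLT1 was not among the measured symbols.

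Junction and adhesion genes, 15 tested, split 7 higher to 3 lower in PVAT against LAD and 6 to 2 in LAD against TA. The shares of all tested probe sets were 24.2% to 32.4% and 14.4% to 10.1%. F11R, a junctional adhesion molecule, was 1.92 higher in PVAT than in LAD, and CLDN5, the claudin of endothelial tight junctions, was 0.67 higher in PVAT than in LAD and 1.13 higher in LAD than in TA. VCAM1, which binds leukocytes, was 1.02 higher in LAD than in TA. In TA without pig 57 it was 0.91 higher in obese pigs (SE 0.13, adjusted p = 0.0312), and with all arrays it was 0.76 and did not pass (adjusted p = 0.383). The obese arrays left include those of pigs 81 and 85, with 28S/18S ratios of 0.61 and 0.57. SELE and ICAM1 were not among the measured symbols, and SELP fell below the filter.

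Of 9 tested genes of caveolae, where PLVAP forms diaphragms, 1 was higher and 5 lower in PVAT than in LAD, against 24.2% and 32.4% of all tested probe sets. CAV1, the main coat protein, was at 0.06 (SE 0.09), PRKCDBP at -1.23 and SDPR, named CAVIN2 in the platform annotation, at 0.82. Of 10 tested genes of coagulation, 4 were higher and 2 lower in the same comparison, with the same shares. PLAT, the tissue plasminogen activator, was 1.36 higher (SE 0.15), and THBD, thrombomodulin, 0.65 higher (SE 0.13).

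The genes most like the members were those with the highest Pearson's r with the mean of the 6 genes over the 32 arrays, both centred on their tissue and diet group, among 6688 genes. They were CDH5 (r = 0.91), PODXL (0.89), RAMP2 (0.86), PDE2A (0.86), KANK3 (0.80), ARAP3 (0.80), FGD5 (0.79), ITM2A (0.79), FLI1 (0.79) and SLC9A3R2 (0.79). Of the 10, 5 stand in the endothelial list, as do 30 of all 6688 genes. These arrays share pigs and one processing. Within single tissues 3 of the 10 were among the first 10 in LAD, 4 in TA and 0 in PVAT. These rankings rest on 10 or 11 arrays each, and a dependence on tissue was not tested. Without the TA array of pig 57, 6 of the 10 remained among the first 10.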

How the data were processed

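The deposited values are log2 expression values per probe set, made by the authors with the affy package for R, per the submitters' processing notes. Its version, the background correction and the normalization are not given in the sources used here, nor is a genome build. The 14327 deposited probe sets all reach a log2 of 6.64 in at least 11 arrays. Symbols came from the authors' file, which pairs 11602 probe sets with 8390 human symbols.

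Limma 3.58.1 in R 4.3.3 was fitted to 10029 probe sets, after leaving out the 30% with the lowest mean: within a tissue for diet, and over all 6 groups for tissue comparisons (lean and obese differences averaged) and differences of the diet effect. Tests were two-sided, adjusted by Benjamini-Hochberg over all tested probe sets, and the code was tested on simulated data. Gene lists used 1 probe set per gene, that with the highest mean; named genes are the largest differences that passed, or the smallest p, plus a fixed set of names.

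Pigs pair the tissues by their labelled number: over 31 pairs of arrays, deviations from group means correlated at -0.20 to 0.50 (median 0.24). The members and lists were chosen with earlier results of these data known. Arrays give no counts, so their number limits the precision.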

Additional observations from a re-analysis of the deposited data

Results flagged for a closer look

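In 1 of 42 groups of a probe set a single array lay far from the rest by Dixon's test at 95%, which chance does for about 1 in 20 groups. PECAM1 in obese LAD was 8.81 in pig 51, while the nearest of the other obese pigs had 9.16, so that the gap made up 0.835 of the range of the group.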

How the results depend on the processing

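Every call between tissues held for each member probe set under each alternative tried. The 455 values of single probe sets in the tissue comparisons kept direction and call in 447 cases, those of diet in 438 of 455 and those of the differences between tissues in 441 of 455. For diet in TA the count of members that passed was 0 and became 1 with the 28S/18S ratio as a covariate (PLVAP), 2 with array weights (TEK and PLVAP), 2 with all 6 groups in 1 fit and 1 without pig 57 (PLVAP). Leaving out each pig in turn gave 0 to 1. With the pig as a replicate block in the fit over all groups the count was 2 (TEK and PECAM1, adjusted p = 0.00991 each in limma), and the block changed no call between tissues or between diet effects.

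Reversals were of small differences that did not pass, and their cause was not tested. For diet in LAD, VWF was -0.0548 with the 28S/18S covariate and -0.0529 without the low-ratio arrays, and the second ESAM probe set 0.0091 and 0.0323. For diet in PVAT, VWF was -0.0411 with the covariate, PECAM1 -0.0029 without the low-ratio arrays, and the second ESAM probe set -0.0272 with array weights and -0.0121 to 0.1943 without single pigs. For LAD minus TA, KDR was -0.0565 with quantile normalization, -0.0598 with array weights, -0.0556 without the low-ratio arrays, -0.1515 with the heart muscle covariate and -0.0687 to 0.1862 without single pigs. VWF was -0.0659 with that covariate, and PLVAP -0.1910 to 0.0007 without single pigs. For the difference of the diet effect between LAD and TA, KDR was 0.0394 with array weights. Between PVAT and LAD, PECAM1 was 0.0240 with the 28S/18S covariate, 0.0129 with array weights and -0.1878 to 0.0812 without single pigs, and PLVAP -0.3122 to 0.0235 without single pigs. The second ESAM probe set was -0.0076 with array weights, and VWF and KDR were 0.0560 and 0.0751 without the low-ratio arrays.

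Counts over all probe sets moved more. For diet in LAD 4 passed, 0 without the filter, with the 28S/18S or heart muscle covariate or without the low-ratio arrays, 9 with the date block, 116 with array weights, 69 in 1 fit over all groups, 90 with the replicate block there, and 0 to 106 without single pigs. For diet in TA 0 passed (720 at an unadjusted p under 0.05), 547 with the 28S/18S covariate, 265 with array weights, 60 in 1 fit, 57 with the block, 10 without the low-ratio arrays and 29 without pig 57. For diet in PVAT 0 passed, 2 in 1 fit with or without the block, and 1 without pig 56. For differences of the diet effect 0 passed, and with array weights 1 between LAD and TA and 10 between PVAT and TA, where 4 passed without the low-ratio arrays. LAD against TA went from 2458 to 4139 with array weights, and PVAT against TA from 5992 to 3699 with the heart muscle covariate. The number of pigs limits the precision: diet differences smaller than the intervals given could not be shown.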
